A study of Mus musculus with 10 samples.

Results

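The core circadian clock genes were examined in left ventricular RNA of 10 male mice. The genes are Arntl (the older symbol of Bmal1), Clock, Npas2, Per1, Per2, Per3, Cry1, Cry2, Nr1d1 and Nr1d2. They were chosen by symbol, and all 10 are among the 29564 genes listed. Of the 10 genes, 8 passed the filter on low counts (an estimated count of at least 1 in 9 of 10 mice, protein-coding and not mitochondrial), which 13285 genes passed. Arntl was detected in 7 mice and Clock in 8, so both were left out of the main test and are given by mouse.

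The control group held 5 wild-type mice (TT-583 to TT-587), labelled C57BL6 and named C57BL/6J in the methods of the study, on a diet with 10 kcal% fat that had no aortic surgery. The HFD+mTAC group held 5 wild-type mice of the same strain, numbered TT-588 to TT-592, on a diet with 60 kcal% fat that underwent moderate transverse aortic constriction (mTAC), a partial narrowing of the aortic arch, at 11 weeks of age, to bring about heart failure in which ejection fraction is preserved. Induction lasted 16 weeks. All mice are labelled as vehicle-treated, and the protocol gives daily vehicle (5% DMSO and 45% PEG-300, 10 mL/kg) for 6 to 9 weeks for the HFD+mTAC mice. Diet and surgery changed together, so their effects cannot be told apart. The animals were kept in 12 h light and 12 h dark. The time of day at which each heart was collected is not given in the sources used here. Nothing in the labels gives a batch.

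The mammalian clock is a feedback loop of transcription. ARNTL pairs with CLOCK, or with its relative NPAS2, and the pair binds E-box sequences and activates the Per and Cry genes, whose proteins return to the nucleus and inhibit the pair. The same pair activates Nr1d1 and Nr1d2, which encode the nuclear receptors REV-ERBα and REV-ERBβ, and these repress Arntl and Npas2 through ROR response elements (ROREs). In mouse tissues, Arntl and Npas2 transcripts therefore run close to opposite in phase to those of Per2, Per3 and Nr1d1, and cardiomyocytes hold a clock of this kind.

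Promoter stretches are shown because the loop acts through these elements. RefSeq windows (GRCm38.p6) of 300 bases, from 250 before to 50 after an annotated start, were matched for 9 of the 10 genes in 13 windows, and Per2 has no entry. Both strands were searched for the E-box CACGTG, the variant CACGTT, the D-box TTATGNAA (bound by DBP, TEF and HLF, and by their repressor NFIL3), the RORE core TAGGTCA and the CRE TGACGTCA. These patterns do not contain one another. Capitals mark the matches, and a variant on the opposite strand reads AACGTG.
Arntl, chr7:113207531-113207557 (+): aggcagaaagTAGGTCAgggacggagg
Per1, chr11:69098763-69098948 (+): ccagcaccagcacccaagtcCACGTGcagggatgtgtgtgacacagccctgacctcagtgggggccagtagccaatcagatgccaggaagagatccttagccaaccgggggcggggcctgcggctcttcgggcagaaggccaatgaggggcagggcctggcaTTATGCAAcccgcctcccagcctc
Per3, chr4:151044796-151044890 (-): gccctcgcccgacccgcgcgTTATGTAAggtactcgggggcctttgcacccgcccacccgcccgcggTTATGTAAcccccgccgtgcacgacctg
Cry1, chr10:85185089-85185153 (-): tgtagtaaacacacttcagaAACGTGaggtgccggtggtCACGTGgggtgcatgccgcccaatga
Cry2, chr2:92434210-92434255 (-): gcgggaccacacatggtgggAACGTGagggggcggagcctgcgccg
Nr1d1, chr11:98775380-98775425 (-): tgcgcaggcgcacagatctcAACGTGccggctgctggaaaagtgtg

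The E-box was found in windows of 2 genes (Per1 and Cry1), its variant in 3 (Cry1, Cry2 and Nr1d1), the D-box in 2 (Per1 and Per3), the RORE core in 1 (Arntl) and the CRE in 0. Over 32851 windows of the same length, 7.15% held the E-box, 4.68% the variant, 3.38% the D-box, 2.61% the RORE core and 1.79% the CRE. These shares are per window, whereas the counts above are per gene, with up to 3 windows each. The Arntl match lay in 1 of its 2 windows, at base 31 counted from the start. A match describes letters in a window and not a bound site. The windows of Clock, Npas2 and Nr1d2 held none of these letters.

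Estimated counts summed to 34.2 to 53.7 M in the control mice and 35.8 to 46.7 M in the HFD+mTAC mice, and mitochondrial genes took 47.8% ± 3.57 (SD, n = 5) and 50.1% ± 2.37 (SD, n = 5) of them. Levels are given in CPM, which are counts scaled to the effective library size over the tested genes. The control mice TT-583 and TT-584 stood apart in the clock genes and had the lowest mitochondrial shares (43.8% and 44.0%). Relative to the mean over mice of each gene, their effective transcript lengths were also the shortest. The median log2 value was -0.085 and -0.11 in them, against -0.050 or more in the other 8 mice. Their plain median lengths of 2903.6 and 2838.6 bases were not the shortest. Among the macrophage and leukocyte markers, Lyz2 was highest in them (183 and 179 CPM against 104 to 152 CPM), while Cd68, Csf1r and Ptprc lay within the range of the other 8 mice. These markers were named after their values were seen. Summed ventricular cardiomyocyte markers lay between 58546 and 63738 CPM in the control mice and between 47749 and 55404 CPM in the HFD+mTAC mice, without overlap. All 7 of these markers had a lower estimate, of which 2 had an unadjusted p under 0.05 and 0 passed adjustment. Of all tested genes, 3.73% were lower at that unadjusted threshold. Taken singly, 0 of the 7 markers had groups that did not overlap, against 1.95% of all tested genes. In bulk tissue, fewer cells of a type and less RNA per cell cannot be told apart. Adipocyte markers summed to at most 2.44 CPM in any mouse. The part of these markers in the clock gene results was not tested.

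In TPM, which corrects for transcript length, the receptors and Per1 had the highest levels among the clock genes and the activators the lowest. Over all 10 mice, Nr1d1 lay between 4.25 and 10.4 TPM, Nr1d2 between 2.99 and 4.98 TPM and Per1 between 1.49 and 4.92 TPM. Cry2 (1.13 to 2.10 TPM), Per2 (0.382 to 1.51 TPM), Per3 (0.274 to 0.996 TPM) and Cry1 (0.381 to 0.725 TPM) followed. Clock reached at most 0.295 TPM, Npas2 0.312 TPM and Arntl 0.195 TPM. In the order of the means, neighbouring genes overlapped in range except Cry1 and Clock, where the lowest Cry1 level was above the highest Clock level.

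**Figure D1:**
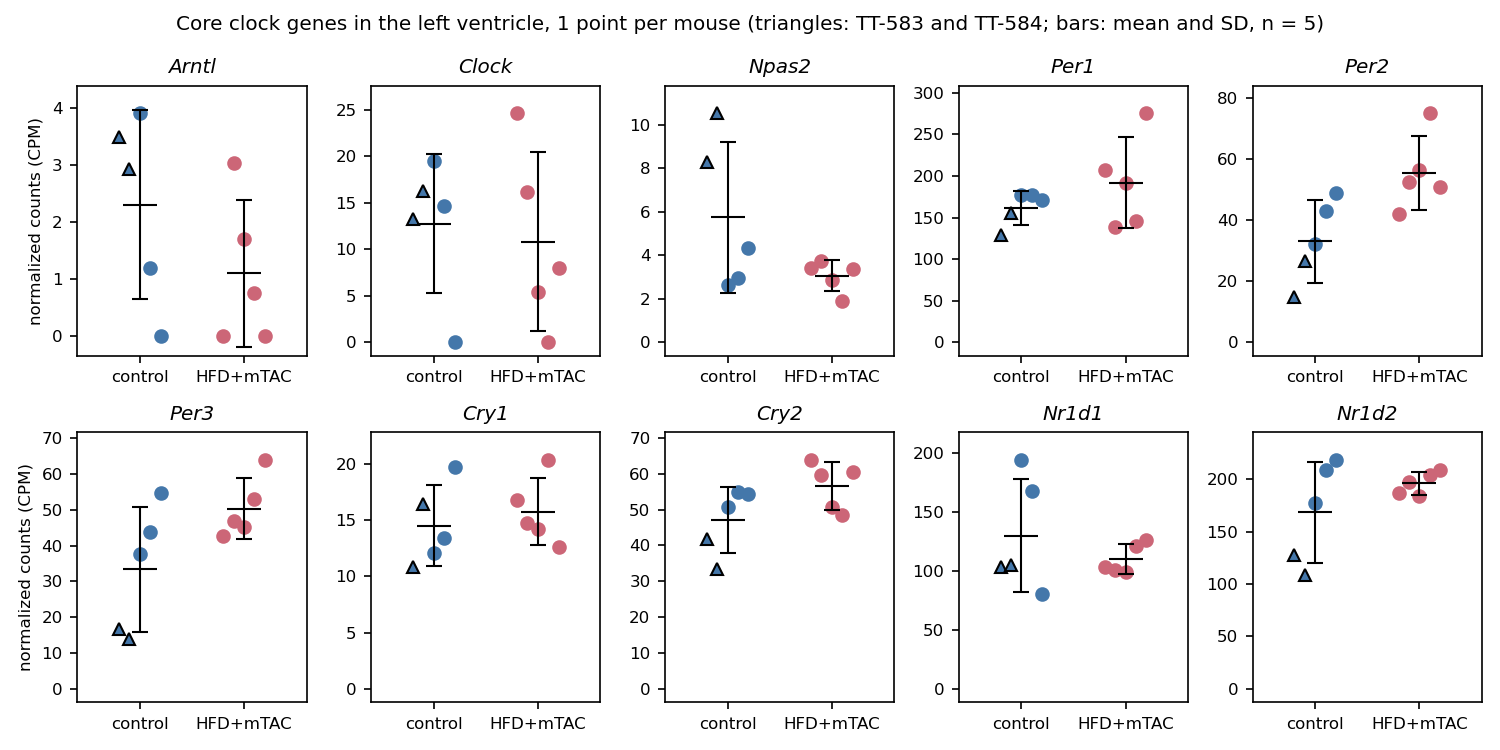
Level of each core clock gene in CPM (y axis, linear, a separate scale for each gene) for every mouse, by group, with the group mean and SD (n = 5). The groups overlap in every panel, and TT-583 and TT-584 lie below the other 8 mice for Per2, Per3, Cry2 and Nr1d2 and above them for Npas2.

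The activators were the least abundant clock transcripts. Arntl (GRCm38 chr7:113207465-113314126, plus strand) was at 3.49, 2.93, 3.91, 1.19 and 0 CPM in the control mice, in order of mouse number, and at 0, 3.03, 1.69, 0.760 and 0 CPM in the HFD+mTAC mice, in the same order as used from here on. The 3 highest control mice stood near 1 HFD+mTAC mouse, and the groups overlapped. Its mean was 2.30 ± 1.65 CPM (SD, n = 5) in the control mice and 1.10 ± 1.28 CPM (SD, n = 5) in the HFD+mTAC mice, a difference of -0.88 on the log2(CPM + 0.5) scale (two-sided exact permutation test, p = 0.333). In a fit without the filter its log2 fold change was -1.10 (SE 1.06, edgeR adjusted p = 0.782).

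Clock (chr5:76209868-76304792, minus strand), the partner of ARNTL, was at 13.3, 16.3, 19.5, 14.7 and 0 CPM in the control mice and at 24.6, 16.1, 5.37, 0 and 7.96 CPM in the HFD+mTAC mice. Each group held 1 mouse listed at 0, and the highest level was in an HFD+mTAC mouse. Without the filter its log2 fold change was -0.25 (SE 0.93, edgeR adjusted p = 0.961). Of 9706 protein-coding genes with a median of at least 100 estimated counts, 74 were listed at 0 in at least 1 mouse and Clock was one of them, so an exact 0 here can be a failed estimate. If these zeros are true counts, a count of 0 allows up to 0.236 CPM (3 counts, counting error only) in the shallowest of these mice.

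Npas2 (chr1:39193731-39363236, plus strand), the relative of CLOCK, was at 8.26, 10.5, 2.65, 2.96 and 4.33 CPM in the control mice and at 3.40, 3.75, 2.85, 1.91 and 3.38 CPM in the HFD+mTAC mice. TT-583 and TT-584 were above every other mouse. Of the other 3 control mice, TT-585 and TT-586 lay among the HFD+mTAC mice, and TT-587 (4.33 CPM) lay above all of them. The log2 fold change of HFD+mTAC over control was -0.91 (SE 0.38, edgeR adjusted p = 0.530). With both TT-583 and TT-584 left out, an alternative chosen after seeing the data, it was -0.10 (SE 0.28, edgeR adjusted p = 0.988). It was -0.58 without TT-584 alone and -0.33 with the mitochondrial share as a covariate.

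The Per genes encode the limiting inhibitors of the loop. Per2 (chr1:91415982-91459324, minus strand) was at 14.7, 26.5, 32.0, 42.9 and 49.0 CPM in the control mice and at 42.1, 52.5, 56.3, 74.8 and 50.6 CPM in the HFD+mTAC mice. Of the HFD+mTAC mice, 4 lay above all control mice and TT-588 lay below the 2 highest. The means were 33.0 ± 13.5 CPM (SD, n = 5) and 55.3 ± 12.1 CPM (SD, n = 5), with a log2 fold change of 0.75 (SE 0.26, edgeR adjusted p = 0.443). The two-sided exact permutation test on log2(CPM + 0.5) gave p = 0.0238. Without TT-583 and TT-584 the log2 fold change was 0.42 (SE 0.19, edgeR adjusted p = 0.884).

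In the deposited TPM the Per2 groups did not overlap, with 0.382 to 0.934 TPM in the control mice and 0.970 to 1.51 TPM in the HFD+mTAC mice. Among all tested genes, 0.693% did not overlap in TPM, and 0.218% did so with the HFD+mTAC mice higher. The exact permutation p of 0.00794 is the smallest that 5 against 5 mice can give. On log2(TPM + 1) of these deposited values the group difference was 0.33. For limma, TPM were first rescaled in each mouse to the same total over the tested genes. The limma difference on log2(TPM + 1) was then 0.73 (SE 0.23) with an adjusted p of 0.608. Per2 passed adjustment neither in CPM nor in the rescaled TPM.

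Per3 (chr4:151003652-151044665, minus strand), a paralog with D-boxes in its window, was at 16.8, 13.9, 37.5, 43.7 and 54.7 CPM in the control mice and at 42.6, 47.0, 45.1, 53.1 and 63.9 CPM in the HFD+mTAC mice. TT-583 and TT-584 had less Per3 than any other mouse, and the remaining 8 mice overlapped. The log2 fold change was 0.60 (SE 0.32, edgeR adjusted p = 0.669) and was 0.15 (SE 0.16, edgeR adjusted p = 0.985) without these 2 mice.

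Per1 (chr11:69095217-69109960, plus strand), which light, hormones and cAMP also induce, was at 128, 155, 177, 177 and 172 CPM in the control mice and at 207, 139, 191, 146 and 275 CPM in the HFD+mTAC mice. Of the HFD+mTAC mice, 3 lay above all control mice and 2 within their range, and TT-592 was the highest. The log2 fold change was 0.25 (SE 0.17, edgeR adjusted p = 0.776), and 0.079 without TT-592.

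The Cry genes encode the other inhibitors, and neither passed the test. Cry1 (chr10:85131700-85185064, minus strand) was at 10.8, 16.5, 12.1, 13.5 and 19.7 CPM in the control mice and at 16.8, 14.8, 14.3, 20.4 and 12.6 CPM in the HFD+mTAC mice. Its groups overlapped over most of their range, with a log2 fold change of 0.12 (SE 0.18, edgeR adjusted p = 0.918) that ran from 0.011 without TT-591 to 0.25 without TT-587. Cry2 (chr2:92403646-92434043, minus strand) was at 41.9, 33.3, 50.7, 54.9 and 54.4 CPM in the control mice and at 63.8, 59.7, 50.6, 48.4 and 60.4 CPM in the HFD+mTAC mice. TT-583 and TT-584 were again the lowest. The log2 fold change of Cry2 was 0.27 (SE 0.14, edgeR adjusted p = 0.656), and 0.084 (SE 0.11) without them. Exons of Cry2 overlap D930015M05Rik on the opposite strand.

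Nr1d1 and Nr1d2 encode the receptors that close the second arm of the loop. Nr1d1 (chr11:98767932-98775333, minus strand) was at 103, 105, 194, 168 and 80.3 CPM in the control mice and at 103, 101, 99.3, 121 and 126 CPM in the HFD+mTAC mice. The control mice spanned both the highest and the lowest levels. The log2 fold change was -0.24 (SE 0.21, edgeR adjusted p = 0.824), and -0.43 (SE 0.23, edgeR adjusted p = 0.929) without TT-583 and TT-584. Leaving out TT-585 alone gave -0.052, leaving out TT-586 alone -0.13 and leaving out TT-587 alone -0.37. Exons of Nr1d1 overlap Thra on the opposite strand, and those of Arntl overlap Gm45355. The strand setting of the quantification is not given in the sources used here.

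Nr1d2 (chr14:18204054-18239127, minus strand) was at 127, 109, 178, 209 and 218 CPM in the control mice and at 187, 198, 184, 204 and 209 CPM in the HFD+mTAC mice. Apart from TT-583 and TT-584, the lowest, all mice lay within a narrow range. Its log2 fold change was 0.22 (SE 0.17, edgeR adjusted p = 0.791) and turned to -0.041 (SE 0.10) without them.

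**Figure D2:**
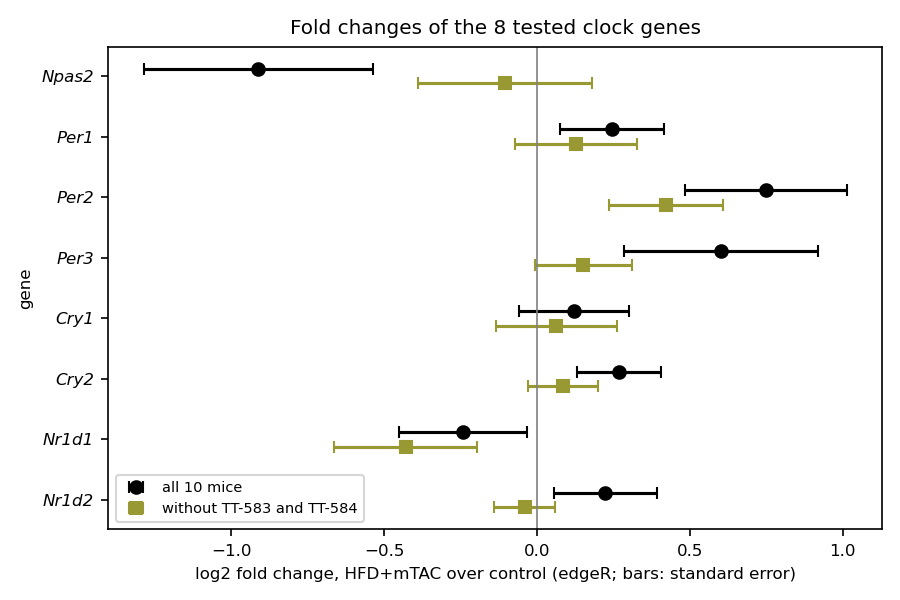
Log2 fold change of HFD+mTAC over control with its standard error for the 8 tested clock genes, with all 10 mice and with both TT-583 and TT-584 left out. Npas2 moved from -0.91 to -0.10, Per3 from 0.60 to 0.15 and Per2 from 0.75 to 0.42.

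Across the loop, 0 of the 8 tested genes passed an edgeR adjusted p of 0.05, against 0.0602% of all tested genes. At an unadjusted p under 0.05, 2 of 8 passed (Per2 higher and Npas2 lower), against 8.26% of all tested genes (4.54% higher and 3.73% lower). DESeq2 called 0 of the 8 after adjustment, against 0.903% of all tested genes, and limma on log2(TPM + 1) called 0, against 0.00753%. At an unadjusted p under 0.05, DESeq2 had 2 of 8 (Npas2 and Per2), against 8.84% of all tested genes, and limma had 2 of 8 (Per2 and Per3), against 6.71%. The estimate was above 0 for 6 genes and under 0 for 2, with a median log2 fold change of 0.23 against 0.00168 over all tested genes. In CPM, 0 of 8 had groups that did not overlap, against 1.95% of all tested genes. Without TT-583 and TT-584, 5 were higher and 3 lower, the median was 0.07, and 1 (Per2) had an unadjusted p under 0.05 (5.5% of all tested genes). In that fit 0 passed adjustment (0.0301% of all tested genes), and 0 had groups that did not overlap (4.57%).

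The phase relations were then read mouse by mouse. Each heart gives 1 time point, so these are orders of levels and not measured phases. TT-583 and TT-584 had the highest Npas2 and the lowest Per2, Per3, Cry2 and Nr1d2 of the 10 mice. Both lay outside the range of the other 8 mice, on the same side, in 5 of the 8 tested clock genes, against 8.11% of all tested genes. Npas2 was 8.26 and 10.5 CPM in them against 1.91 to 4.33 CPM in the others. Per3 was 16.8 and 13.9 CPM against 37.5 to 63.9 CPM, and Nr1d2 was 127 and 109 CPM against 178 to 218 CPM. Per1, Cry1, Nr1d1, Arntl and Clock did not set both mice apart. These mice were picked out after their values were seen, so no test was made between them and the rest.

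Ratios restate these levels within each mouse. The ratio of Npas2 to Nr1d2 in TPM, of which both genes already set the 2 mice apart, was 0.0712 and 0.101 in TT-583 and TT-584 and between 0.0102 and 0.0218 in the other 8 mice, both groups included. The ratio of Arntl to Per2 in TPM was 0.511 in TT-583, 0.225 in TT-584 and 0.249 in TT-585, and it was at most 0.116 in the remaining mice. TT-587, TT-588 and TT-592 were listed at 0 for Arntl, and their Per2 lay between 42.1 and 50.6 CPM. Among the HFD+mTAC mice, TT-591 had the highest Per2 (74.8 CPM) and the lowest Npas2 (1.91 CPM). Over the 8 mice without TT-583 and TT-584, Pearson's r of Npas2 and Per2 was -0.32 (permutation p = 0.444, adjusted p = 0.673). It was 0.52 without the 2 of these mice farthest in Npas2. The ratio of Per2 to Per1 in TPM ran from 0.158 to 0.457 in the control mice and from 0.262 to 0.857 in the HFD+mTAC mice, so the groups overlapped.

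**Figure D3:**
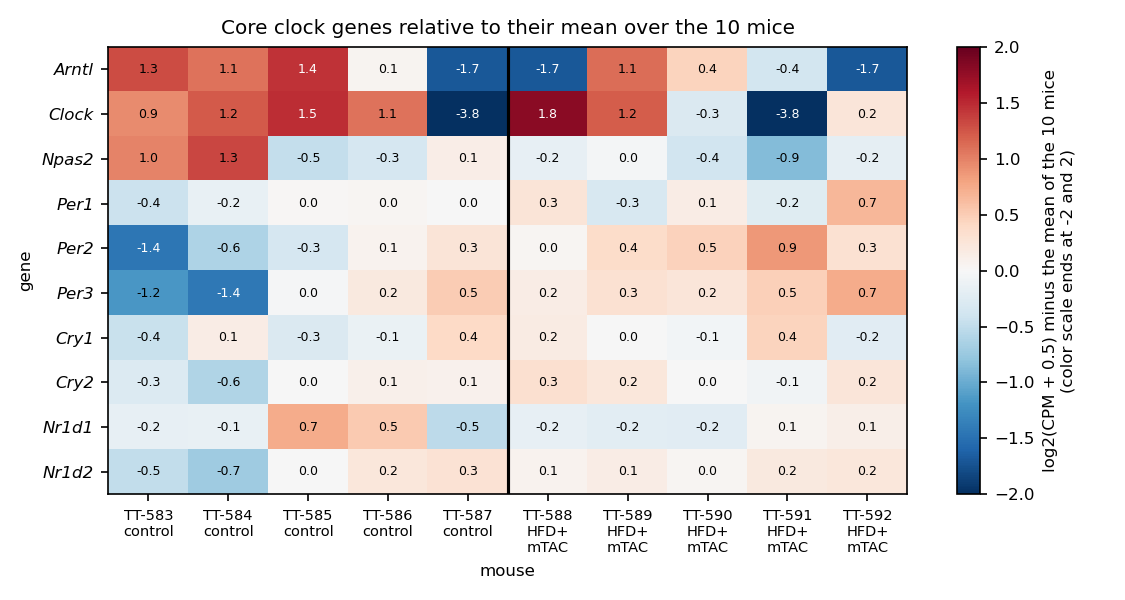
Level of each clock gene (rows) in each mouse (columns) as log2(CPM + 0.5) minus the mean of that gene over the 10 mice, with the colour scale ending at -2 and 2. TT-583 and TT-584 show positive values for Npas2 and negative values for Per2, Per3, Cry2 and Nr1d2, and no HFD+mTAC mouse shows both.

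Relations between the clock genes were computed for 45 pairs. Over all 10 mice, as planned, 1 pair passed adjustment, Per3 and Nr1d2 (r = 0.98, permutation p = 0.00013, adjusted p = 0.00585). That value takes in TT-583 and TT-584, which were the lowest in both genes. These 2 mice were picked out after their values were seen. The coefficients that follow are over the other 8 mice, with both groups pooled. Per3 and Nr1d2 had r = 0.76 and rho = 0.79 (permutation p = 0.0288 and 0.0272, adjusted p = 0.576 and 0.614 over 45 pairs) and r = 0.67 without the 2 mice farthest in Per3. Clock and Cry1 had r = -0.78 (permutation p = 0.0280, adjusted p = 0.576), with rho = -0.47 (permutation p = 0.245, adjusted p = 0.614). Without the 2 mice farthest in Clock, TT-587 and TT-591, r was 0.29, so this relation rests on them. Both were listed at 0 for Clock, which can be a failed estimate. Over the 8 mice, 0 of 45 pairs passed adjustment.

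**Figure D4:**
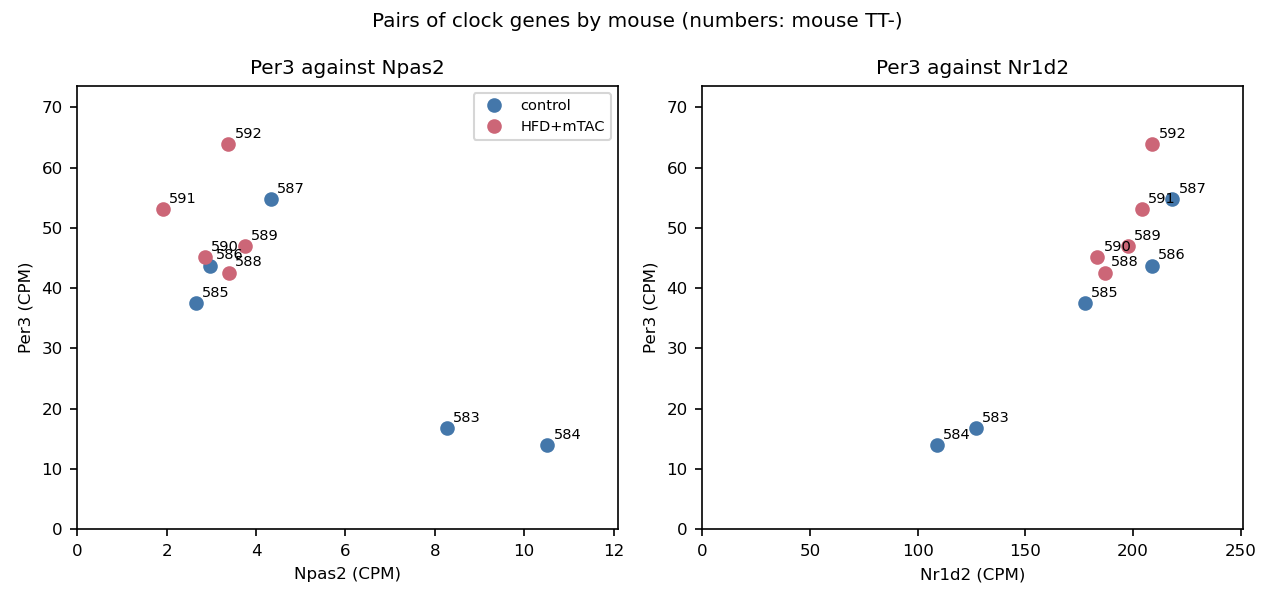
Pairs of clock genes in CPM by mouse, with control and HFD+mTAC mice marked and each point labelled by its mouse number. TT-583 and TT-584 lie away from the other 8 mice, and the remaining mice of both groups are mixed.

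The spread within groups was large for 3 of the 8 tested genes. The within-group SD of log2(CPM + 0.5) was 0.63 for Per3, 0.61 for Npas2 and 0.52 for Per2, and 4.02%, 4.48% and 7.94% of all tested genes had a larger one. Cry2 (0.25) and Cry1 (0.30) had less spread. Without TT-583 and TT-584 the SD was 0.24 for Per3, 0.32 for Npas2 and 0.30 for Per2, and 0 of 8 genes lay in the top 10% of tested genes.

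Other genes of the pathway were counted in lists. Of 7 clock output factors and repressors, 5 had a higher and 2 a lower estimate and 0 passed adjustment. The median log2 fold change was 0.31, and -0.00281 without TT-583 and TT-584. At an unadjusted edgeR p under 0.05, 1 was higher (Tef) and 2 lower (Nfil3 and Bhlhe40), against 4.54% and 3.73% of all tested genes. Groups did not overlap in CPM for 1 of the 7 (Tef), against 1.95% of all tested genes. Bhlhe40 had a log2 fold change of -0.37 (SE 0.155, edgeR adjusted p = 0.542), and -0.26 without TT-583 and TT-584. Tef, an activator at D-boxes such as those in the Per1 and Per3 windows, was at 107, 88.3, 161, 198 and 193 CPM in the control mice and at 211, 226, 203, 233 and 229.99 CPM in the HFD+mTAC mice. Its log2 fold change was 0.56 (SE 0.19, edgeR adjusted p = 0.432), and 0.26 without TT-583 and TT-584, which were the lowest. Where transcript length entered, the Tef estimate was larger, at 2.24 with limma on log2(TPM + 1) (adjusted p = 0.381) and 1.82 with lengths as an offset (edgeR adjusted p = 0.559), and the cause was not tested. Nfil3, the repressor at the same element, was at 37.7 and 39.9 CPM in these 2 mice and between 11.8 and 17.9 CPM in the other 8. Its log2 fold change was -0.72 (SE 0.28, edgeR adjusted p = 0.504) with all mice and -0.078 without them.

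The 4 genes of the ROR receptors and Arntl2, which activate at ROREs or pair with CLOCK, all had a higher estimate, and 0 had an unadjusted p under 0.05. Of 13 clock kinases and turnover factors, 7 were higher and 6 lower by estimate, and of 11 cofactors 7 and 4. In either list 0 had an unadjusted p under 0.05, against 8.26% of all tested genes. Of 7 clock-controlled genes of the heart, 5 were higher and 2 lower by estimate. Of them, 2 (Wee1 and Dgat2) were higher at an unadjusted edgeR p under 0.05, against 4.54% of all tested genes. Wee1, a kinase that holds back mitosis, had a log2 fold change of 0.54 (SE 0.19, edgeR adjusted p = 0.442), and Dgat2, which makes triglycerides, 0.28 (SE 0.10, edgeR adjusted p = 0.443). Without TT-583 and TT-584 they were 0.33 and 0.25, and 0 of the 7 had an unadjusted p under 0.05, against 5.5% of all tested genes.

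Per1 and Per2 also respond to glucocorticoids and to CREB or serum signals, so genes of those responses were counted. A link between these genes and the levels of Per1 or Per2 was not tested. The lists were chosen with earlier results of these data known, so their counts are a description. All 8 glucocorticoid-responsive genes had a higher estimate in HFD+mTAC, with a median log2 fold change of 0.40, and 0.50 without TT-583 and TT-584. Of them, 3 had an unadjusted p under 0.05, against 4.54% of all tested genes that were higher at that threshold. After adjustment 0 passed, against 0.0602% of all tested genes. Ddit4, an inhibitor of mTORC1 signalling, was at 33.0, 40.2, 38.6, 25.3 and 50.7 CPM in the control mice and at 66.1, 79.0, 147, 119 and 87.0 CPM in the HFD+mTAC mice. Its log2 fold change was 1.41 (SE 0.22, edgeR adjusted p = 0.0509). The groups did not overlap in CPM for 2 of the 8 genes, Ddit4 and Zbtb16, against 1.95% of all tested genes. By estimate, all 6 CREB and serum-responsive immediate early genes were lower, with a median of -0.81, and -0.67 without TT-583 and TT-584. An unadjusted p under 0.05 was reached by 5, against 3.73% of all tested genes that were lower at that threshold, and 0 passed adjustment. In CPM, 0 of the 6 had groups that did not overlap, against 1.95% of all tested genes. Egr1, a growth-induced transcription factor, had a log2 fold change of -0.67 (SE 0.17, edgeR adjusted p = 0.261). With DESeq2, 4 genes of these lists passed adjustment, namely Ddit4 (adjusted p = 8.43e-07), Zbtb16 (0.0112), Egr1 (0.0186) and Fosb (0.0491). Over all tested genes, DESeq2 called 0.903%.

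The genes whose pattern was most like that of Arntl and of Nr1d1 were ranked by Pearson's r of group-centred log2(CPM + 0.5) over the 10 mice as a description. The ranking took in TT-583 and TT-584, and 3 mice were listed at 0 for Arntl. For Arntl, Ckmt2, the mitochondrial creatine kinase of muscle, had the highest r of 0.96, followed by Dhrs7c, Rsl24d1, Csnk1g2 and Nifk (0.94 to 0.95), and Mex3d had the lowest (-0.93), followed by Ube4b, Plcb4, Slc35a3 and Mysm1. For Nr1d1, Tmem260 had the highest r (0.94) and Gm2a the lowest (-0.95), followed by Prkra, Fam49b, G6pdx and Morf4l1. Against Arntl, r was -0.61 for Per1, -0.54 for Per3, -0.51 for Nr1d2, -0.49 for Cry2, -0.43 for Cry1, -0.37 for Per2 and 0.24 for Nr1d1. Of 10091 genes ranked from the highest r, Per1 stood at 9618 and Per2 at 8367.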

How the data were processed

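Left ventricular polyA RNA of 5 control and 5 HFD+mTAC mice was sequenced. The authors deposited expected counts per gene (Salmon 1.6.0, summed with tximport, not normalized, 20.07% not whole), TPM (deposited, scaled within each mouse for length and depth) and effective transcript lengths. The labels name a human build while the paper names GRCm38, and read layouts in the labels and the paper differ. Gene coordinates are from a GENCODE annotation of GRCm38, and of 29564 symbols 27812 matched directly and 853 through an older symbol. Promoter sequences are from RefSeq.

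Counts were rounded and tested with the quasi-likelihood test of edgeR 4.0.16 (R 4.3.3, TMM, Benjamini-Hochberg adjustment over 13285 genes), with control and HFD+mTAC as the only term and SE as the absolute log2 fold change over the square root of F. The common dispersion was 0.0423. Alternatives were DESeq2 1.42.0, limma 3.58.1 on log2(TPM + 1) or log2(TPM + 0.1), other normalizations and filters, lengths as an offset, the mitochondrial share as a covariate, and leaving out each mouse. Leaving out both TT-583 and TT-584, and the spread in TPM, were added after seeing the data. For every limma fit, TPM were first rescaled in each mouse to the same total over the tested genes. Ranges, ratios, pairs and spread in TPM used the deposited values. Fits were tested on simulated data. For a single gene, an exact permutation test (two-sided, 252 arrangements) was used, and for correlations 100000 permutations. Nothing states that mice came from separate litters or extractions, so p-values measure the spread between these samples. The genes and lists were chosen with earlier results of these data known. Beside the 10 clock genes, genes are named from the 2 with the smallest p in each direction of each list, and from the 5 most and the 5 least like Arntl or Nr1d1 in pattern (mean of at least 5 CPM).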

Additional observations from a re-analysis of the deposited data

Results flagged for a closer look

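Of 76 groups of 5 mice examined gene by gene, 1 held a mouse far from the others. Csnk1e, the kinase CK1ε that phosphorylates PER proteins, was at 96.6 CPM in the HFD+mTAC mouse TT-592 and between 79.3 and 84.0 CPM in the other 4. The gap took 0.726 of the range of the group. Chance alone flags about 1 in 20 groups. TT-592 also had the highest Per1 and Per3 of the 10 mice.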

How the results depend on the processing

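Over 176 alternatives for the 8 tested clock genes, 175 kept the sign and 0 reached an adjusted p of 0.05. The exception was Nr1d2, at -0.041 without both TT-583 and TT-584. The log2 fold change of Per2 ran from 0.42 to 0.93 (adjusted p from 0.176 to 0.884). The count of genes called among all tested genes was 8 and depended on the tool and mice: 120 with DESeq2, 1 with limma at either pseudocount, 1 with lengths as an offset, 4 with the mitochondrial covariate, 4 without both mice, and 1 to 9 without 1 mouse. Calls in the other lists went from 0 to 4 with DESeq2. Clock genes with non-overlapping groups went from 0 to 1 in log2(TPM + 1) and ranged from 0 to 1 without 1 mouse (1 without TT-588, which is Per2's lowest HFD+mTAC mouse). Pairs of clock genes past adjustment went from 1 over 10 mice (Per3 and Nr1d2) to 0 in log2(TPM + 1) and 0 without both mice. Without 1 mouse, 0 to 3 pairs passed (0 without TT-583 or TT-584, 3 without TT-588). Genes of large spread went from 3 to 0 in log2(TPM + 1) and to 0 without both mice. The pseudocount of 1 flattens genes at low TPM, and Npas2, Per2 and Per3 reached at most 0.312, 1.51 and 0.996 TPM. The 0 in log2(TPM + 1) therefore cannot show that their spread was smaller. Cdkn1a turned from -0.61 to 0.080 with the mitochondrial covariate and 0.30 without both mice, and Csnk2a1 from -0.087 to 0.16 with limma (either pseudocount) and 0.38 with lengths as an offset. The cause was not tested. No paired analysis was possible because the groups share no replicate numbers. Depth limits Arntl most among the clock genes, at no more than 79.8 estimated counts in any mouse. Single mice moved the estimates of Npas2, Per1, Cry1, Cry2, Nr1d1 and Nr1d2 by over 1.5 times, and those of Cry2 and Nr1d2 fell to 0.17 and 0.10 without TT-584 and that of Nr1d2 to 0.14 without TT-583.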
